A study of Mus musculus with 6 samples.

Results

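The genes described here are 47 interferon-stimulated genes, measured by bulk RNA-Seq in regulatory T cells (Tregs) sorted from mouse melanomas. They were chosen by name, as genes induced by type I or type II interferon, by a rule that uses no measured value, but with earlier results of these data known. All 47 have a row among the 12153 genes of the deposited table. Each of the 6 libraries holds Tregs from a tumor grown from B16.F10 cells, a mouse melanoma line, and taken at day 15 after inoculation. The 3 control libraries come from mice with a floxed *Nr3c1*, the gene that encodes the glucocorticoid receptor (GR), and no other allele in their labels. The 3 *Nr3c1 Foxp3-Cre* libraries come from mice with the same floxed gene and, in addition, a Foxp3-YFP/Cre allele, in which the *Foxp3* promoter drives Cre recombinase and a yellow fluorescent protein in Tregs. All libraries therefore carry the floxed gene, and Cre is present in 1 group only. The strain and age of these mice are not given in the sources used here, and the study combined female and male mice. The labels name a sort on CD45, CD4 and CD25 and the study's methods one on Foxp3-YFP, so how the gates compared between the groups cannot be told apart from genotype here. Nothing in the labels says whether replicates came from separate animals, so p-values measure only the spread between these libraries.

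Type I interferons are secreted by cells that sense infection or damaged nucleic acid. Type I interferons bind a receptor made of IFNAR1 and IFNAR2, and the kinases JAK1 and TYK2 then activate STAT proteins, among them STAT2, which acts with IRF9 in a complex that binds the interferon-stimulated response element (ISRE). Interferon-γ, the type II interferon, acts through IFNGR1 and IFNGR2 and leads to binding at the gamma-activated site (GAS). The products of the target genes sense viral RNA and DNA, block the replication of viruses, form guanine nucleotide-binding proteins that coat the vacuoles of intracellular microbes, or feed back on the pathway. Glucocorticoids are known to dampen interferon responses in several cell types, and the comparison asks whether Tregs without GR differ from control Tregs in these genes.

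The promoters were read first, because they show what the members share apart from their names. RefSeq windows from 250 bases before to 50 bases after a gene's start were at hand for 38 of the 47 members, on the build GRCm38.p6, and some genes have more than 1 window. *Rtp4*, *Zbp1*, *Mx1*, *Parp14*, *Iigp1*, *Dhx58*, *Usp18*, *Parp9* and *Oas2* were not in that table. The ISRE core was searched as GAAANNGAAA on both strands, and 20 of the 38 members, or 52.6%, held it, against 3.99% of the 27025 genes of the table. The GAS core, TTCNNNGAA, reads the same on both strands and was held by 28.9% of the members and by 9.55% of all genes. At least 1 of the cores was found in 25 of the 38 members, and 6 held both. The following 4 stretches are shown because they belong to *Isg15*, whose level followed 1 library, to *Trim30a* and *Stat2*, which differed in opposite directions between the groups, and to *Irf1*, which has the GAS core and not the ISRE core. Each is printed 5′ to 3′ on the gene's own strand with the core in capitals.
*Isg15*, ISRE core, chr4:156200856-156200915, minus strand: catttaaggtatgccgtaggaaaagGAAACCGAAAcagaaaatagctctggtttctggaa
*Trim30a*, ISRE core, chr7:104465195-104465254, minus strand: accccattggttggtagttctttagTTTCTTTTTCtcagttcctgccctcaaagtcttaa
*Stat2*, ISRE core, chr10:128270251-128270310, plus strand: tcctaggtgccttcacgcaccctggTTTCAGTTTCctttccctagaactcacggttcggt
*Irf1*, GAS core, chr11:53769899-53769957, plus strand: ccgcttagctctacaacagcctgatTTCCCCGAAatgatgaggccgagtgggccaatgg
The core begins 72 bases before the start of *Isg15*, 36 before that of *Trim30a*, 222 before that of *Stat2* and 90 before that of *Irf1*. In *Isg15* it overlaps 2 further matches that begin 78 and 66 bases before the start. The core of *Trim30a* and *Stat2* is on the opposite strand and is therefore read in reverse complement. A match is a description of the letters and does not show that a factor binds there.

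Values are log2 CPM, where CPM is a read count scaled to the total of its library, and the authors quantile normalized them, which gives every library the same distribution of values, and the read depth of the libraries is unknown. *Nr3c1* was lower in each *Nr3c1 Foxp3-Cre* library than in each control library, with a mean log2 difference of -1.38 (standard error, SE, 0.21), and so was *Tsc22d3*, a gene that GR induces, with -1.56 (SE 0.16). The T cell genes *Cd4* and *Cd3e* and the CD25 gene *Il2ra* were between 8.20 and 9.32 log2 CPM in all libraries, and *Foxp3* was between 3.39 and 4.47. Control replicate 1 was the lowest library for each of these genes. Of the other T cell and Treg markers listed, *Cd3d*, *Cd3g* and *Trac* were also lowest there. *Ctla4*, *Ikzf2* and *Tnfrsf18* were lowest in other libraries. Transcripts of other cells were also present. All 7 melanoma markers had values, with sums of 3409 to 9134 CPM in control and 3802 to 9537 CPM in *Nr3c1 Foxp3-Cre* libraries. All 14 macrophage and monocyte markers had values, with sums of 716 to 990.45 CPM and 633 to 1039.5 CPM. The 5 of 6 fibroblast and endothelial markers with a value summed to 236 to 502 CPM in control and 138 to 225 CPM in *Nr3c1 Foxp3-Cre* libraries. For dendritic cells 4 of 7 markers had a value, without *Itgax*, *Clec9a* and *Siglech*, and for B cells and for CD8 T and NK cells 1 marker each.

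Before the groups are compared, 1 library has to be described. The 47 members had their highest value in control replicate 1 for 33 genes, or 70.2%, while that library was highest for 19.8% of all genes. Control replicate 2 was the lowest library for 22 members, or 46.8%, against 18.2% of all genes. The mean level of the members was 6.60, 6.01 and 6.19 log2 CPM in control replicates 1 to 3 and 6.08, 6.09 and 6.18 in *Nr3c1 Foxp3-Cre* replicates 1 to 3. Control replicate 1 therefore stood above the other 5 libraries, which lay close together. Summed on the linear scale the members took 7508, 5098 and 6068 CPM in the control libraries and 5469.5, 5618 and 6123 CPM in the *Nr3c1 Foxp3-Cre* libraries. The median difference of a member between control replicate 1 and the mean of the other controls was 0.45 on the log2 scale, and over all genes it was -0.011. Control replicate 1 also had the highest fibroblast and endothelial sum, 502 CPM, and high melanoma and macrophage sums, 9134 and 990.45 CPM. In the first of these sums *Col1a1*, *Col1a2*, *Col3a1* and *Dcn* were highest in that library and *Pecam1* lowest. The sum of T cell and Treg markers was lowest in control replicate 1, 5242 CPM, and highest in control replicate 2, 6943 CPM. Control replicate 2 also had the lowest melanoma sum, 3409 CPM. *Nr3c1 Foxp3-Cre* replicate 2 had higher melanoma and macrophage sums, 9537 and 1039.5 CPM, with the members at a mean of 6.09 log2 CPM. The fibroblast and endothelial sum of that library was 225 CPM and its T cell and Treg sum 5456 CPM. The part of other cells in the level of the members was not tested.

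**Figure D1:**
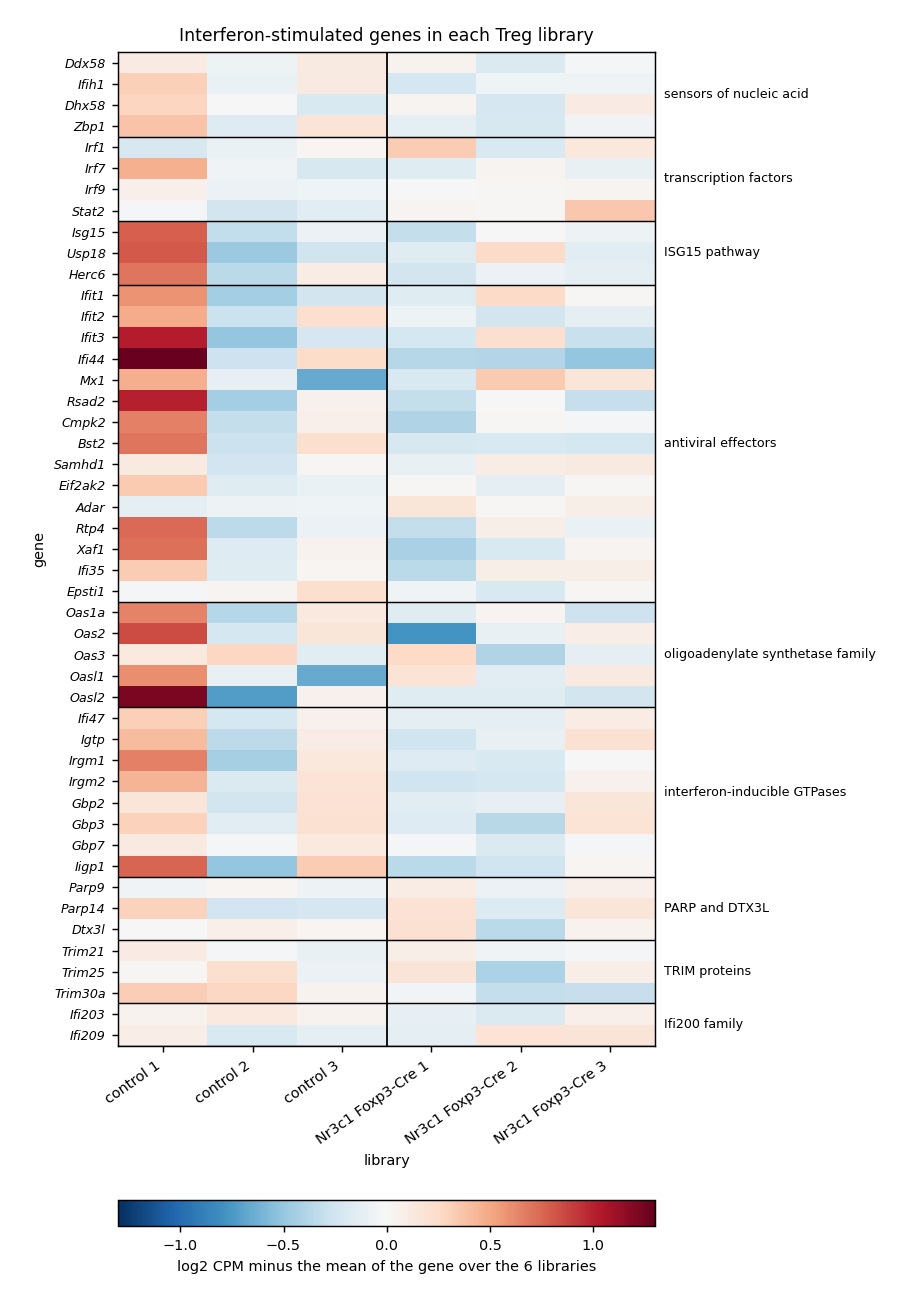
Level of the 47 interferon-stimulated genes in each library, as log2 CPM minus the mean of the gene over the 6 libraries, with genes in rows grouped by role and libraries in columns (3 control left of the line, 3 *Nr3c1 Foxp3-Cre* right of it). Control replicate 1 is the highest library for 33 of the 47 genes and control replicate 2 the lowest for 22.

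Between the groups, the interferon-stimulated genes differed little against the spread of the libraries, and the difference seen depended on which control libraries were included. The log2 difference, which is the mean log2 CPM of the *Nr3c1 Foxp3-Cre* libraries minus that of the control libraries, was below 0 for 35 members and above 0 for 12, with a median of -0.15 (all genes, -0.0014). By limma with Benjamini-Hochberg adjustment over all genes, 0 members had an adjusted p under 0.05, the lowest adjusted p being 1.0, where 0.0576% of all genes passed. At an unadjusted p under 0.05, 0 members were higher and 1, *Trim30a*, was lower, against 3.26% of all genes in either direction. The groups did not overlap for 3 members that were lower, *Ifi44*, *Trim30a* and *Gbp7*, against 3.73% of all genes. They did not overlap for 2 that were higher, *Stat2* and *Adar*, against 3.69% of all genes. The 95% confidence interval of the log2 difference spanned 0 for 46 of 47 members and lay within 1 log2 unit of 0 for 43. In bulk RNA, fewer cells that express a gene and less RNA per cell cannot be told apart.

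Control replicate 1 was singled out for its high values, so leaving it out raises the log2 difference of most members by construction. Without control replicate 1 the median log2 difference of the members was -0.0022, with 24 below 0 and 23 above it. By limma 3 members then had an unadjusted p under 0.05, where 3.18% of all genes passed. These were *Ifit1* (0.37) and *Stat2* (0.32) above 0 and *Trim30a* (-0.38) below it. Leaving out control replicate 2 instead moved the members the other way, to a median of -0.22. By limma 15 were then lower with an unadjusted p under 0.05, where 5.78% of all genes passed in either direction. Among these *Bst2* was at -0.66 and *Iigp1* at -0.74, with adjusted p = 0.320 and 0.277. The groups did not overlap for 19 lower members, but groups separate more easily with 1 control library fewer. The share of all genes without overlap in that fit is not given here, so the count does not show that the members stood out. The mean of the members was 6.27 ± 0.31 log2 CPM (SD, n = 3) in control and 6.12 ± 0.057 (SD, n = 3) in *Nr3c1 Foxp3-Cre* libraries, a difference of -0.15, and of 0.021 without control replicate 1. Most members had the larger spread in the control group. The SD of a member over 3 libraries had a median of 0.27 in control and 0.16 in *Nr3c1 Foxp3-Cre* Tregs (all genes, 0.20 in both), and it was larger in control for 33 of 47 members, or 70.2%, against 49.7% of all genes. For 15 members the control libraries ranged over more than 1 log2 unit, each time with control replicate 1 on top, and for 0 members did the *Nr3c1 Foxp3-Cre* libraries.

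**Figure D2:**
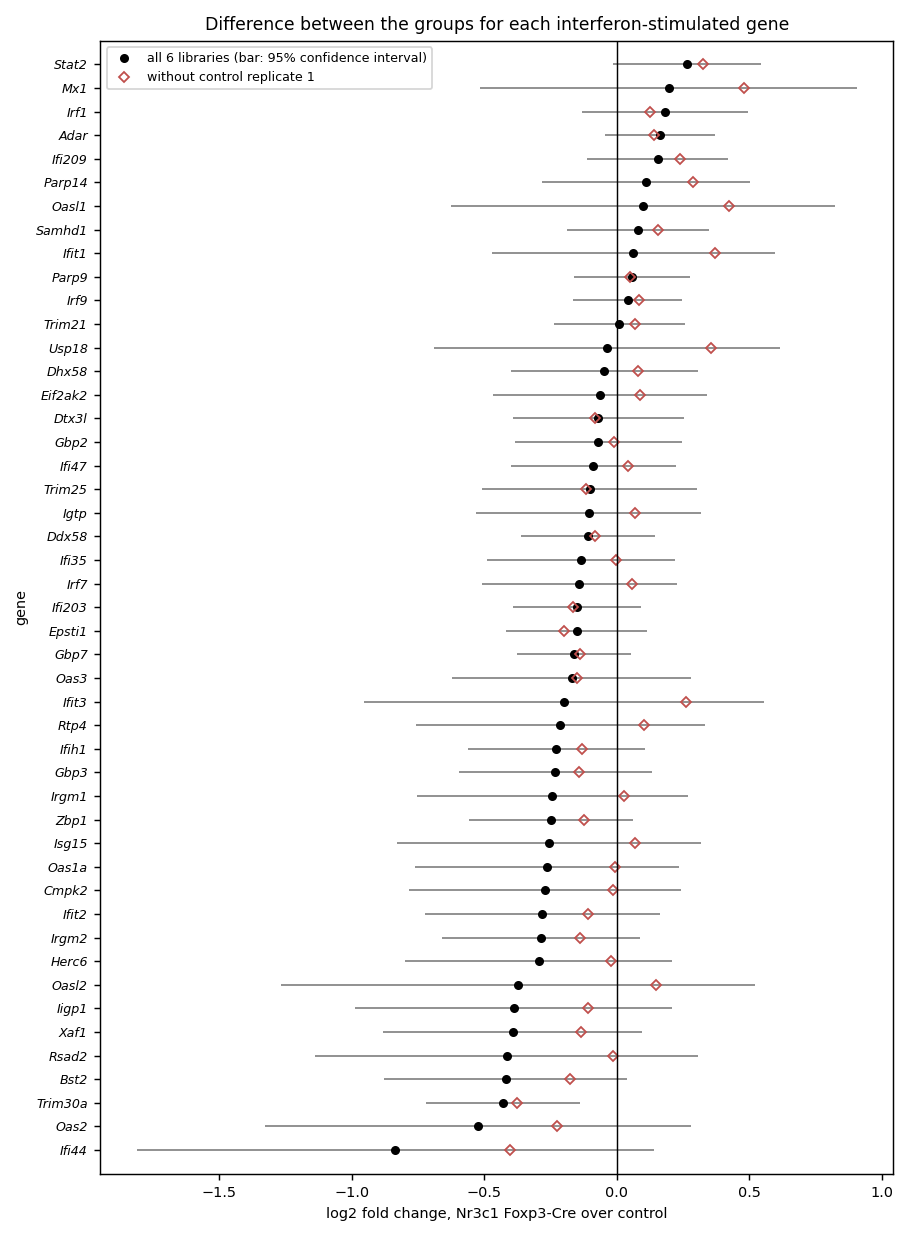
Log2 fold change of each interferon-stimulated gene, *Nr3c1 Foxp3-Cre* over control, with all 6 libraries (filled circles, bars are 95% confidence intervals from limma) and without control replicate 1 (open diamonds). With all libraries 35 genes lie below 0 and 46 of 47 intervals span 0, and without control replicate 1 the genes fall on both sides, 24 below and 23 above.

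The sensors of nucleic acid were lower in the mean of *Nr3c1 Foxp3-Cre* Tregs for 4 of 4 members, with log2 differences from -0.25 to -0.047, and 0 of them had an unadjusted p under 0.05 by limma. RIG-I (*Ddx58*) and MDA5 (*Ifih1*) detect viral RNA, LGP2 (*Dhx58*) modulates both, and ZBP1 binds left-handed nucleic acid and can start cell death. *Zbp1* had the highest level of the group per length of transcript. It was at 7.59, 7.05 and 7.40 log2 CPM in control replicates 1 to 3 and at 7.11, 7.02 and 7.17 in *Nr3c1 Foxp3-Cre* replicates 1 to 3. Only control replicates 1 and 3 were above all *Nr3c1 Foxp3-Cre* libraries, and the log2 difference of *Zbp1* was -0.25 (SE 0.14) with all libraries and -0.12 without control replicate 1.

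Among the 4 transcription factors, 3 had a log2 difference above 0, with a median of 0.11. STAT2 and IRF9 belong to the type I interferon complex, IRF7 amplifies interferon production, and IRF1 carries much of the interferon-γ response. *Stat2* (ENSMUSG00000040033.16, chromosome 10 of mm10 from 128270559 to 128292849) was at 6.52, 6.30 and 6.40 log2 CPM in control and 6.57, 6.55 and 6.89 in *Nr3c1 Foxp3-Cre* Tregs. Every *Nr3c1 Foxp3-Cre* library was above every control library, by 0.031 between the closest pair. The difference was 0.27 (SE 0.12, limma p = 0.0589, adjusted p = 1.0), or 1.20-fold, and an exact two-sided permutation test gave p = 0.1, the smallest that 3 libraries against 3 allow. *Irf1* was at 7.75, 7.87 and 7.98 log2 CPM in control and 8.29, 7.76 and 8.10 in *Nr3c1 Foxp3-Cre* Tregs. *Nr3c1 Foxp3-Cre* replicate 2 lay among the controls, and the log2 difference of *Irf1* was 0.18 (SE 0.14). *Irf9* was the steadiest member, with all 6 libraries between 6.97 and 7.11 log2 CPM and a log2 difference of 0.041 (SE 0.092). *Irf7* had a log2 difference of -0.14 and, without control replicate 1, 0.057.

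The ISG15 pathway comprises the ubiquitin-like modifier ISG15, the protease USP18, which removes it and restrains the type I receptor, and the ligase HERC6, which attaches it. All 3 had a log2 difference below 0, from -0.29 to -0.037. *Isg15* was at 6.04, 4.94 and 5.19 log2 CPM in control and 4.96, 5.26 and 5.20 in *Nr3c1 Foxp3-Cre* Tregs. Control replicate 1 was above the other 5 libraries, which lay within 0.32 log2 units of each other, and the log2 difference of *Isg15* was -0.26 (SE 0.26) with all libraries and 0.071 without control replicate 1. *Usp18* was at 7.29 log2 CPM in control replicate 1, and its log2 difference moved from -0.037 to 0.35 when that library was left out. As a mean over the pathway, control replicate 1 was 0.76 above and control replicate 2 0.39 below the mean of the 6 libraries.

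The antiviral effectors are the largest group, 15 genes, of which 11 had a log2 difference below 0, with a median of -0.20, and 0 an unadjusted p under 0.05 by limma. The IFIT proteins bind viral RNA, viperin (*Rsad2*) and CMPK2 make an altered nucleotide that stops viral polymerases, tetherin (*Bst2*) holds budding virions at the membrane, PKR (*Eif2ak2*) stops translation, ADAR edits double-stranded RNA, SAMHD1 depletes deoxynucleotides and MX1 is a dynamin-like GTPase. *Ifi44* (ENSMUSG00000028037.13, chromosome 3 from 151730922 to 151749960), a cytoplasmic protein of the interferon response, had the lowest level per length of all 47 members. It was at 2.65, 1.09 and 1.60 log2 CPM in control and 0.99, 0.99 and 0.86 in *Nr3c1 Foxp3-Cre* Tregs. Its groups did not overlap, by 0.10 between the closest libraries. For *Ifi44* the log2 difference was -0.84 (SE 0.43, limma p = 0.0848, adjusted p = 1.0; exact two-sided permutation p = 0.1), the largest in size among the members, at 3.44 CPM against 1.93 CPM, and it was -0.40 without control replicate 1.

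*Bst2* (ENSMUSG00000046718.8, chromosome 8 from 71534255 to 71537456) was at 7.51, 6.54 and 7.03 log2 CPM in control and 6.61, 6.62 and 6.59 in *Nr3c1 Foxp3-Cre* Tregs. The *Nr3c1 Foxp3-Cre* libraries differed by 0.023, while control replicate 2 was below all of them and the other controls were above. In *Bst2* the log2 difference was -0.42 (SE 0.20) and -0.18 without control replicate 1. *Rsad2* was at 5.45, 3.999 and 4.51 log2 CPM in control and 4.13, 4.44 and 4.15 in *Nr3c1 Foxp3-Cre* Tregs. Its log2 difference of -0.42 (SE 0.32) became -0.014 without control replicate 1. *Ifit3* was at 8.001, 6.48 and 6.76 log2 CPM in control and 6.75, 7.20 and 6.69 in *Nr3c1 Foxp3-Cre* Tregs. For *Ifit3* the direction itself turned, from -0.20 (SE 0.34) to 0.26 without control replicate 1, and its close copy *Ifit3b* makes the split of reads between them uncertain.

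The effectors with a log2 difference above 0 were *Mx1*, *Adar*, *Samhd1* and *Ifit1*. *Adar* (ENSMUSG00000027951.16, chromosome 3 from 89715022 to 89753446) was at 6.88, 6.94 and 6.94 log2 CPM in control and 7.16, 7.02 and 7.07 in *Nr3c1 Foxp3-Cre* Tregs. Every *Nr3c1 Foxp3-Cre* library was above every control library. The log2 difference of *Adar* was 0.16 (SE 0.092, limma p = 0.108, adjusted p = 1.0; exact two-sided permutation p = 0.1), and 0.14 without control replicate 1. *Mx1* was at 3.50, 2.93 and 2.37 log2 CPM in control and 2.83, 3.37 and 3.19 in *Nr3c1 Foxp3-Cre* Tregs, so its groups overlapped and its log2 difference was 0.20 (SE 0.32). The remaining effectors, *Ifit2*, *Cmpk2*, *Rtp4*, *Xaf1*, *Ifi35*, *Epsti1* and *Eif2ak2*, had log2 differences from -0.39 to -0.064 with groups that overlapped.

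**Figure D3:**
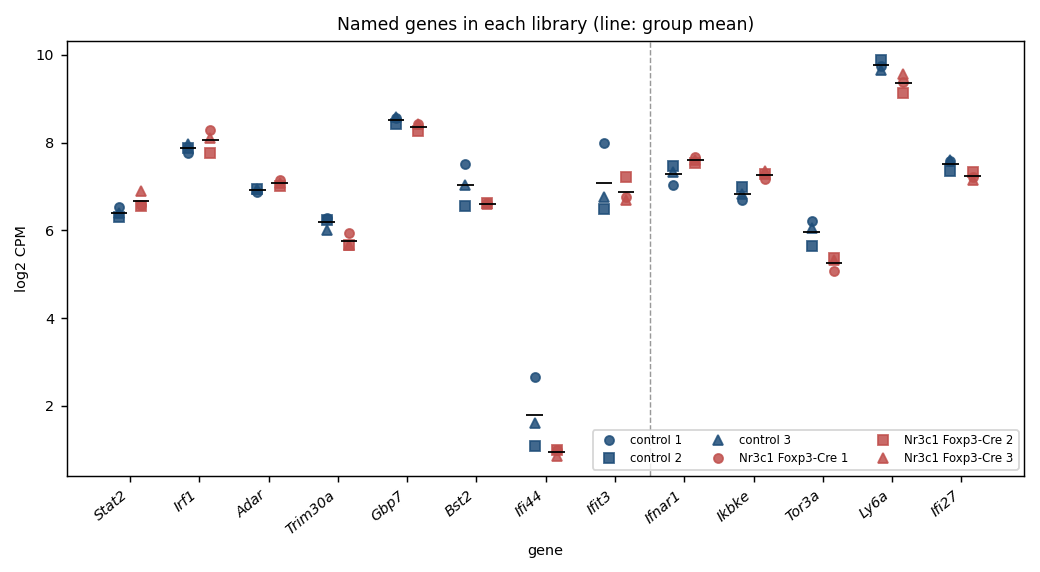
Log2 CPM of 8 interferon-stimulated genes (left of the dashed line) and 5 genes of the interferon pathway or further interferon-induced genes (right of it) in each library, with control in blue, *Nr3c1 Foxp3-Cre* in red and the group mean as a line. The groups of *Stat2*, *Adar*, *Trim30a*, *Gbp7* and *Ifi44* do not overlap, and the control libraries of *Ifit3* spread from 6.48 to 8.001.

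Oligoadenylate synthetases make the second messenger that activates RNase L, and the OAS-like proteins belong to the same family. Of the 5 members 4 had a log2 difference below 0, with a median of -0.26 and 0 at an unadjusted p under 0.05 by limma. *Oas1a* was at 6.92, 5.91 and 6.41 log2 CPM in control and 6.13, 6.32 and 6.02 in *Nr3c1 Foxp3-Cre* Tregs. Its log2 difference of -0.26 (SE 0.22) was -0.0076 without control replicate 1. *Oas2*, at 3.42, 2.34 and 2.72 log2 CPM in control and 1.79, 2.47 and 2.65 in *Nr3c1 Foxp3-Cre* Tregs, had a log2 difference of -0.52 (SE 0.36). Leaving out control replicate 1 gave -0.23, and leaving out *Nr3c1 Foxp3-Cre* replicate 1 gave -0.27. *Oasl2* had the widest control group of all members. It was at 5.74, 3.80 and 4.58 log2 CPM in control, a range of 1.95, and at 4.36, 4.37 and 4.28 in *Nr3c1 Foxp3-Cre* Tregs, a range of 0.086. For *Oasl2* the log2 difference was -0.37 (SE 0.40) and 0.15 without control replicate 1.

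The interferon-inducible GTPases, which comprise the immunity-related GTPases *Igtp*, *Irgm1*, *Irgm2*, *Ifi47* and *Iigp1* and the guanylate-binding proteins *Gbp2*, *Gbp3* and *Gbp7*, act on vacuoles that hold microbes. They had the most uniform direction of the larger groups, with 8 of 8 log2 differences below 0, from -0.39 to -0.070, and 0 at an unadjusted p under 0.05 by limma. *Igtp* had the highest level per length of all 47 members, 8.66 log2 CPM per kilobase of transcript, followed by *Ifi47* with 7.16. *Igtp* was at 10.06, 9.31 and 9.75 log2 CPM in control and 9.40, 9.56 and 9.85 in *Nr3c1 Foxp3-Cre* Tregs. Values of the groups overlapped throughout, and its log2 difference was -0.11 (SE 0.19). *Igtp* overlaps *Irgm2* on the same strand of chromosome 11, so reads may be split between them.

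*Gbp7* (ENSMUSG00000040253.15, chromosome 3 from 142530342 to 142550149) was at 8.57, 8.43 and 8.57 log2 CPM in control and 8.42, 8.26 and 8.42 in *Nr3c1 Foxp3-Cre* Tregs. Its groups did not overlap, although control replicate 2 and *Nr3c1 Foxp3-Cre* replicate 1 were 0.0145 apart. For *Gbp7* the log2 difference was -0.16 (SE 0.095, limma p = 0.125, adjusted p = 1.0; exact two-sided permutation p = 0.1) and -0.14 without control replicate 1. *Iigp1* had the largest difference of the GTPases, -0.39 (SE 0.27), with control libraries from 6.88 to 8.13 log2 CPM and *Nr3c1 Foxp3-Cre* libraries from 7.03 to 7.40 log2 CPM. Without control replicate 1 it was -0.11, and the 8 GTPases had a median of -0.059 with 5 below 0.

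The PARP proteins and their partner were near 0. PARP9 and the ubiquitin ligase DTX3L form a complex that supports STAT signaling, and PARP14 adds single ADP-ribose units to proteins. *Parp9*, the highest of these per length, was at 6.75, 6.82 and 6.73 log2 CPM in control and 6.89, 6.72 and 6.86 in *Nr3c1 Foxp3-Cre* Tregs, with a log2 difference of 0.059 (SE 0.097). *Parp14* had a log2 difference of 0.11 and *Dtx3l*, whose 5′ end overlaps that of *Parp9* on the other strand, of -0.069, and the groups of both overlapped.

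The TRIM proteins hold the 1 member with an unadjusted p under 0.05. *Trim30a* (ENSMUSG00000030921.17, chromosome 7 from 104409025 to 104465193, minus strand), a RING domain protein of an expanded mouse cluster that restrains NF-κB signaling, was at 6.29, 6.24 and 6.02 log2 CPM in control and 5.94, 5.66 and 5.67 in *Nr3c1 Foxp3-Cre* Tregs. Every *Nr3c1 Foxp3-Cre* library was below every control library, and control replicate 1 did not stand apart. The log2 difference of *Trim30a* was -0.43 (SE 0.13, limma p = 0.00851, adjusted p = 1.0; exact two-sided permutation p = 0.1), or 0.742-fold, with a 95% confidence interval from -0.72 to -0.14. It stayed between -0.52 and -0.38 with any 1 library left out, with an unadjusted p under 0.05 by limma each time. Its neighbors in the cluster are close copies. *Trim30d*, which is not a member, was at 3.85, 3.88 and 3.82 log2 CPM in control and 3.10, 3.44 and 3.66 in *Nr3c1 Foxp3-Cre* Tregs, also without overlap. *Trim12a*, *Trim12c* and *Trim34a*, further TRIM genes nearby on chromosome 7, had groups that overlapped, with log2 differences of 0.054, -0.26 and -0.048. The ligase TRIM25 activates RIG-I, and TRIM21 is an antibody receptor in the cytosol. *Trim21*, the highest TRIM gene per length, was at 6.18, 6.04 and 5.97 log2 CPM in control and 6.15, 6.02 and 6.05 in *Nr3c1 Foxp3-Cre* Tregs, a log2 difference of 0.010 (SE 0.11), and *Trim25* had -0.10 (SE 0.18).

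The Ifi200 genes encode nuclear proteins that bind DNA, and the members went opposite ways. *Ifi209* was at 7.86, 7.58 and 7.65 log2 CPM in control and 7.66, 7.96 and 7.94 in *Nr3c1 Foxp3-Cre* Tregs, with a log2 difference of 0.16 (SE 0.12). *Ifi203* had -0.15 (SE 0.11). Of the 12 other genes listed for this family 10 had a value, of which 1 had a log2 difference above 0 and 9 below it, and limma gave 0 of them an adjusted p under 0.05. Without control replicate 1 the split was 4 above and 6 below, and their median went from -0.24 to -0.10. Among them *Mndal* was the 1 gene with an unadjusted p under 0.05, at 7.45, 7.23 and 7.35 log2 CPM in control and 7.08, 6.95 and 7.25 in *Nr3c1 Foxp3-Cre* Tregs, a log2 difference of -0.25 (SE 0.11), which was -0.20 and lost that p without control replicate 1. *Ifi207*, *Ifi204* and *Ifi205* had the lowest log2 differences, -1.05, -0.73 and -0.65, all at levels below 4 log2 CPM and with groups that overlapped. They were at -1.25, -0.29 and -0.48 without control replicate 1. *Ifi208* had 1.14, or 1.84 and an unadjusted p under 0.05 without that library, and control replicate 3, at 3.24 log2 CPM, was far below the other libraries, which were at 5.48 to 6.48. These genes are close copies of one another, and how reads were split between them is uncertain.

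**Figure D4:**
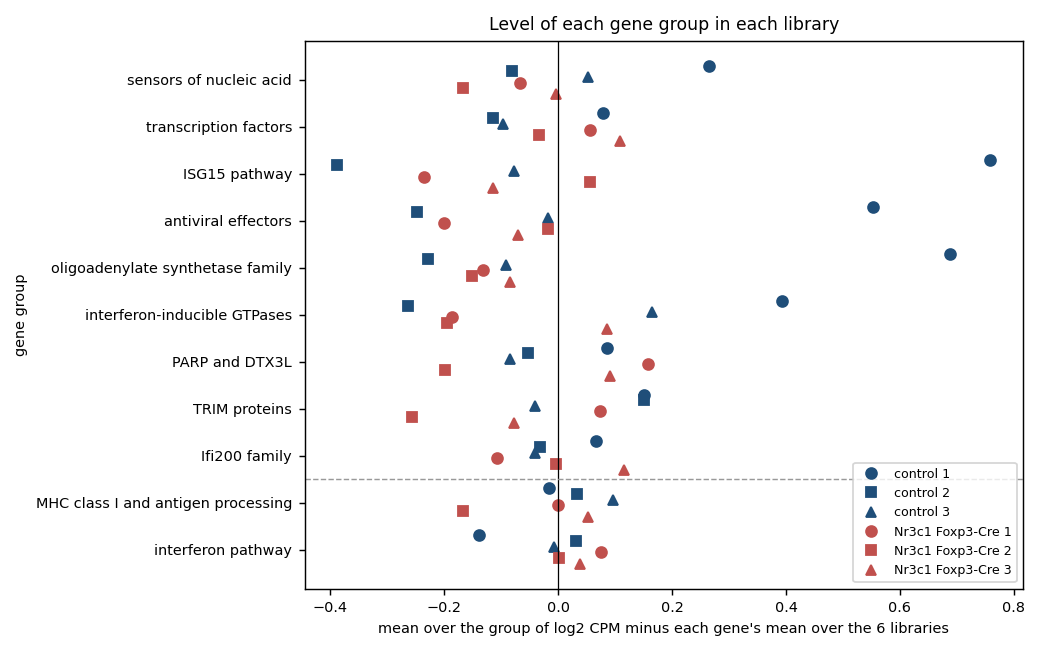
Mean over each gene group of log2 CPM minus the mean of the gene over the 6 libraries, for the 9 role groups of interferon-stimulated genes and, below the dashed line, for MHC class I and antigen processing genes and for interferon pathway genes (control in blue, *Nr3c1 Foxp3-Cre* in red, 1 symbol for each replicate number). Control replicate 1 is at 0.76 for the ISG15 pathway, 0.69 for oligoadenylate synthetases and 0.55 for antiviral effectors, and at -0.14 for the pathway genes.

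The groups of members did not follow control replicate 1 to the same degree. As a mean over the group, that library was above the mean of the 6 libraries by 0.76 for the ISG15 pathway, 0.69 for the oligoadenylate synthetases, 0.55 for the antiviral effectors and 0.39 for the GTPases. It was above by 0.27 for the sensors, and by 0.15 or less for the TRIM proteins, the PARP group, the transcription factors and the Ifi200 members. For the MHC class I and antigen processing list it was at -0.016. The *Nr3c1 Foxp3-Cre* libraries stayed between -0.26 and 0.16 in all 9 groups of members. The members with an ISRE core had a median log2 difference of -0.18 with 17 of 20 below 0, and those with a window and no such core -0.12 with 12 of 18 below 0. Both medians were near 0 without control replicate 1, at -0.012 and 0.021.

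The machinery of interferon signaling showed no difference past adjustment. Of 42 listed pathway genes outside the members 33 had a value, 20 with a log2 difference above 0 and 13 below, with a median of 0.097. The median was 0.021 without control replicate 1, with 19 above 0 and 14 below. By limma 0 of them had an adjusted p under 0.05. An unadjusted p under 0.05 by limma was found for 3, all higher, or 9.09%, against 3.26% of all genes in either direction. The groups did not overlap for 4 that were higher, or 12.1%, against 3.69% of all genes. They did not overlap for 0 that were lower, against 3.73% of all genes. No row was found for *Ifna1*, *Ifna2*, *Ifna4*, *Ifnb1*, *Ifnl2* or *Ifnl3*, nor for *Il12a*, which was listed with them but is not an interferon gene. Of the interferon genes listed only *Ifng*, interferon-γ, had a row, with a log2 difference of 0.20 (SE 0.18), and 0.036 without control replicate 1. *Ifnar1*, a chain of the type I receptor, was at 7.04, 7.46 and 7.34 log2 CPM in control and 7.68, 7.53 and 7.61 in *Nr3c1 Foxp3-Cre* Tregs, a log2 difference of 0.33 (SE 0.12). It was 0.21 without control replicate 1 and no longer had an unadjusted p under 0.05. *Ikbke*, a kinase that activates interferon regulatory factors, was at 6.68, 6.99 and 6.84 log2 CPM in control and 7.18, 7.28 and 7.34 in *Nr3c1 Foxp3-Cre* Tregs. Its log2 difference was 0.43 (SE 0.11, limma adjusted p = 0.827), and 0.35 without control replicate 1. For both genes control replicate 1 was the lowest library, the reverse of its place for most members.

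The other pathway genes gave smaller or less certain differences. *Tlr7*, an endosomal RNA receptor, had a log2 difference of 0.85 (SE 0.36), which lost its unadjusted p under 0.05 without control replicate 1, at low levels, from 1.82 to 3.40 log2 CPM, with control replicate 3 and *Nr3c1 Foxp3-Cre* replicate 1 0.054 apart. *Pias1*, a SUMO ligase, was the fourth gene without overlap, at 0.13 (SE 0.094). *Irf4*, which shapes effector Tregs, had 0.43 (SE 0.25), and 0.15 without control replicate 1. The lowest values of the list were -0.77 for *Tlr3* (SE 0.61), -0.23 for *Irf2bp2* and -0.11 for *Irf2*, all with groups that overlapped, and they were -0.40, -0.37 and -0.16 without control replicate 1.

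Further interferon-induced genes that are not members numbered 69, of which 65 had a value. Their log2 difference was above 0 for 20 and below 0 for 45, with a median of -0.092 and of -0.073 without control replicate 1. By limma 0 had an adjusted p under 0.05. At an unadjusted p under 0.05 by limma, 1 was higher and 6 were lower, together 10.8%, against 3.26% of all genes. The groups did not overlap for 3 higher genes, or 4.62%, against 3.69% of all genes. They did not overlap for 9 lower genes, or 13.8%, against 3.73% of all genes. *Tor3a*, an interferon-induced ATPase of the endoplasmic reticulum, was at 6.22, 5.65 and 6.05 log2 CPM in control and 5.07, 5.37 and 5.33 in *Nr3c1 Foxp3-Cre* Tregs, a log2 difference of -0.71 (SE 0.17, limma adjusted p = 0.607). *Ly6a*, the surface protein Sca-1, was at 9.75, 9.87 and 9.66 log2 CPM in control and 9.38, 9.12 and 9.56 in *Nr3c1 Foxp3-Cre* Tregs, a log2 difference of -0.40 (SE 0.13). Neither gene had its control difference from control replicate 1 alone, since all 3 control libraries were above all *Nr3c1 Foxp3-Cre* libraries. The secreted protein gene *Lgals3bp* had -0.39, *Ifi27* -0.27 and *Ifi27l2a* -0.24. All were closer to 0 without control replicate 1, at -0.26, -0.24 and -0.19, and none of the 3 kept an unadjusted p under 0.05. *Cxcl9*, a chemokine that myeloid cells make in answer to interferon-γ, had -1.34 (SE 0.44) at levels from 0.033 to 2.40 log2 CPM. The 1 higher gene was *Ifitm1*, with 2.31 (SE 0.68), in which all control libraries were below 0 on the log2 CPM scale. *Phf11d* and *Oas1g*, with -1.0 and -0.86, and *Mx2* and *Ddx60*, with 0.42 and 0.35, were the other ends of the list. Leaving out control replicate 1 put *Phf11d* at -0.37, *Oas1g* at -0.26 and *Mx2* at 0.72.

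MHC class I and antigen processing genes, which interferon-γ induces, all had values, 17 of 17. Of these 5 had a log2 difference above 0 and 12 below, with a median of -0.035, and limma gave 0 of them an adjusted or an unadjusted p under 0.05. The extremes were *H2-Q4* with -0.29, *B2m*, the invariant light chain, with -0.21 and *Erap1* with -0.18 on the lower side, and *H2-Q6* with 0.11, *Tapbp* with 0.017 and *Psme1* with 0.0084 on the higher. *H2-D1* sat at 13.02 log2 CPM, the top value of the normalized distribution, in 5 of the 6 libraries, so quantile normalization holds its level there and its log2 difference of -0.11 is not informative.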

How the data were processed

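Bulk RNA-seq of 6 Treg libraries, 3 a group, was analysed. Reads were trimmed (Cutadapt) and aligned to mm10 (STAR) by the authors, who then counted genes with RSEM on GENCODE M21, removed genes under 1 CPM, quantile normalized and fitted limma-voom. What they deposited is log2 CPM per gene and library. The amplified cDNA was not prepared to mark strand. Counts and depth cannot be recovered, so voom weights were not used and precision rests on the number of libraries. A linear model (limma 3.58.1, R 4.3.3; lmFit and trended eBayes, with genotype alone) covered all 12153 genes, with Benjamini-Hochberg adjustment over all genes at 0.05. The fit was tested on simulated data with changes larger than that of any member. That test therefore does not show whether differences of the size seen in the members would be found. Single members were also compared by exact two-sided permutation tests. Levels per length used the GENCODE M21 exon length, and 12130 genes matched by identifier. The members, the lists and the rule for named genes (members past a threshold, without overlap, among the 5 highest or 5 lowest log2 fold changes, or highest per length in a role group; in other lists those with an unadjusted p under 0.05 and the 3 highest and 3 lowest) were chosen with earlier results of these data known. *Trim30d*, *Pias1*, *Oasl2*, *Ifit3*, *Usp18* and *Iigp1* were singled out after their values were seen. Alternatives are given in the closing section. The values of 1 pathway gene are not reported here.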

Additional observations from a re-analysis of the deposited data

How the results depend on the processing

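Depth is unknown, so what it limits at low levels, as in *Ifi44* and *Oas2*, cannot be stated, and 3 libraries a group leave standard errors of 0.17 at the median of the members. No member had an adjusted p under 0.05 by limma under any alternative run, the lowest being 0.277 for *Iigp1* without control replicate 2, and *Trim30a* kept its direction and an unadjusted p under 0.05 in all. The median log2 fold change of the members stayed below 0, at -0.11 with sample quality weights, which gave control replicate 3 a weight of 7.47 and the others 0.520 to 0.860, and from -0.22 to -0.0022 with 1 library left out. Replicate numbers gave no sign of pairing the libraries: deviations of same-numbered libraries correlated at -0.33 to -0.025 across genes. This check cannot tell whether libraries were prepared in matched batches, since deviations from a mean of 3 libraries are not independent. A replicate block left 0 genes past the adjusted threshold of 0.05 and 275 with an unadjusted p under it, with 1 of the pathway list, 5 of the further interferon-induced genes and 0 of the other Ifi200 genes among them, while the counts of members given here were as reported.

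With sample quality weights, under which 11.3% of all genes had an unadjusted p under 0.05 and 19 genes an adjusted one, members with an unadjusted p under 0.05 numbered 2 higher and 9 lower, 19 members had a positive log2 fold change, and the counts were 8 for the pathway list, 17 for further interferon-induced genes, 4 for other Ifi200 genes and 4 for the MHC class I list. The other Ifi200 count was 0 without a mean-variance trend and 0 with robust eBayes. With 1 library left out the members numbered 0 to 2 higher and 1 to 15 lower at an unadjusted p under 0.05, 2 to 7 higher and 3 to 19 lower without overlap, and 9 to 23 with a positive log2 fold change. In these fits 2.39% to 5.78% of all genes had an unadjusted p under 0.05, and groups separate more easily with 1 library fewer. The shares of all genes without overlap in these fits are not given here, so the counts without overlap have no background to be read against. The lists ranged from 1 to 7 (pathway), 5 to 15 (further interferon-induced), 0 to 2 (other Ifi200) and 0 to 2 (MHC class I). The highest counts of lower members and of the first 2 lists came without control replicate 2, and the highest of positive log2 fold changes without control replicate 1.

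Log2 fold changes that turned sign with sample quality weights were 0.033 for *Ifit3*, 0.074 for *Irf7*, 0.039 for *Oas3*, 0.16 for *Usp18*, 0.15 for *Dhx58*, 0.039 for *Eif2ak2*, 0.028 for *Trim25*, 0.013 for *Irf2*, 0.23 for *Ifi214*, 0.029 for *Ifi206*, -0.035 for *Psme1* and -0.027 for *Tapbp*. With 1 library left out they ranged from -0.48 to 0.071 for *Isg15*, -0.14 to 0.37 for *Ifit1*, -0.50 to 0.26 for *Ifit3*, -0.28 to 0.057 for *Irf7*, -0.21 to 0.43 for *Oasl1*, -0.83 to 0.15 for *Oasl2*, -0.083 to 0.48 for *Mx1*, -0.29 to 0.35 for *Usp18*, -0.44 to 0.10 for *Rtp4*, -0.16 to 0.080 for *Dhx58*, -0.18 to 0.087 for *Dtx3l*, -0.25 to 0.0083 for *Ifi35*, -0.22 to 0.044 for *Ifi47*, -0.30 to 0.071 for *Igtp*, -0.52 to 0.026 for *Irgm1*, -0.21 to 0.00761 for *Gbp2*, -0.16 to 0.089 for *Eif2ak2*, -0.023 to 0.16 for *Samhd1*, -0.037 to 0.068 for *Trim21*, -0.21 to 0.079 for *Trim25*, -0.17 to 0.016 for *Irf2*, -0.35 to 0.13 for *Ifi214*, -0.11 to 0.073 for *Ifi206*, -0.035 to 0.047 for *Psme1* and -0.055 to 0.067 for *Tapbp*. The cause was not tested. For single genes, 442 values with 1 library left out and 544 under the other alternatives had the direction and side of the threshold reported, 34 and 12 turned sign, and 4 and 2, all of *Tsc22d3*, were no longer past the adjusted threshold of 0.05.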
